A study of Oryza sativa Indica Group with 12 samples.

Results

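OsIPS1 and the SPX genes were followed in roots of the cultivars BR-IRGA 409 and EPAGRI 108 under excess Fe. Rice is known to switch on OsIPS1 and several of the SPX genes when phosphate runs short. The members are OsIPS1 (LOC_Os03g05334), whose probe set Os.15850.1.S1_at was found through the study's supplementary list of genes raised in BR-IRGA 409, and the genes whose symbol or synonym in the array annotation is SPX1 to SPX6. Of these 7 genes 6 had a probe set and OsSPX6 was matched to none, which leaves OsIPS1 and 5 SPX genes, read by 8 of 57258 probe sets tested. The annotation pairs 17905 genes with a probe set, the 5 SPX genes among them. OsSPX1 (SPX1) was read by Os.11840.1.S1_at, OsSPX2 (SPX2) by Os.15304.1.A1_at and OsSPX3 (SPX3) by Os.46838.1.S1_at. OsSPX4 was read by Os.16964.1.S1_x_at and Os.16964.2.S1_at, and OsSPX5 by Os.51747.1.S1_at and Os.51747.1.S1_x_at. The ending _x_at marks probe sets of which some probes can bind other transcripts too. Because OsIPS1 reached the list through genes the study had picked on these same arrays, its rise in BR-IRGA 409 is not independent evidence of a phosphate response.

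In rice, PHR transcription factors switch on the genes of phosphate uptake and recycling, and SPX proteins, which sense the phosphate status of the cell through inositol pyrophosphates, bind PHR proteins and hold them back when phosphate is plentiful. Several SPX genes are themselves targets of PHR proteins, so that their transcripts rise in phosphate-starved roots and form a feedback loop. OsIPS1 is a non-coding RNA of the family that, as shown in Arabidopsis, traps the microRNA miR399 and thereby spares its target PHO2, and it is widely used as a marker of phosphate starvation.

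Each of 4 groups had 3 of the 12 arrays, all GeneChip Rice Genome Arrays hybridised with RNA from whole roots. Plants were of the indica cultivars BR-IRGA 409, known as susceptible to Fe toxicity, and EPAGRI 108, known as tolerant. Per the study's methods they were already growing in hydroponic solution before the Fe treatment. At 20 days after germination they were given 500 mg/L Fe (excess Fe) or 6.5 mg/L Fe (control), both from FeSO4, for 3 days. The nutrient solution held NaH2PO4 as its phosphate source, and per the study's methods the control solution also received Na2SO4 so that sulfur did not differ between treatments. Levels are the authors' RMA values, 1 log2 value per probe set and array, and levels of different probe sets are not comparable. A change is the difference of 2 group means on that log2 scale with its standard error (SE), and it was called at a limma p, adjusted by Benjamini-Hochberg over all 57258 probe sets, under 0.05. The labels call the arrays biological replicates. How separately the plants were grown is not given in the sources used here, so p-values measure the spread between these samples.

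The 4 arrays numbered 1 stood apart in the gap between the 3' and 5' actin control probe sets, which widens as RNA breaks down. This gap was 2.65 to 2.97 in log2 on these arrays and 0.71 to 1.39 on the other 8. For the GAPDH control probe sets the like gap differed less and overlapped, at 1.49 to 1.64 and 1.18 to 1.52. The root markers LSI1 (13.35 to 13.78) and LSI2 (11.88 to 12.98), which encode silicon transporters, were bright on all 12 arrays. Of the other root markers, the Fe transporter gene IRT1 ran from 5.72 to 11.82 and the Fe-phytosiderophore transporter gene YSL15 from 5.01 to 12.99, above background on 12 and 11 arrays, and both were brightest in BR-IRGA 409 control. Of the leaf markers, CAB2R of the light-harvesting complex was also detected, at 9.25 to 10.75 in EPAGRI 108 and 11.20 to 12.59 in BR-IRGA 409. A probe set of RBCS, the small subunit of Rubisco, stood at 8.84 to 9.50 in BR-IRGA 409 control and at 7.15 to 8.16 in the other 3 groups. The part of these leaf transcripts in the results below was not tested. In whole roots, fewer cells of a type and less RNA per cell cannot be told apart. The background level of an array is taken here as the brightest of 23 control probe sets that match no rice transcript, at 4.51 to 5.01.

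In BR-IRGA 409 roots, excess Fe raised OsIPS1, OsSPX2 and both probe sets of OsSPX5, and lowered none of the members. That is 4 of 8 probe sets called higher, where 4.24% of all probe sets were called higher, and the median change of the 8 was 0.83 beside -0.035 over all probe sets. Without OsIPS1, which the study had picked for this change, 3 of 7 probe sets were called, those of 2 of 5 SPX genes since OsSPX5 counts by both of its probe sets, and the median was 0.70. OsIPS1 also passed 3-fold, which 1.10% of all probe sets did upwards. That followed from how it was picked, and nothing is read from it. Among the SPX genes 0 were called with 3-fold, although Os.51747.1.S1_at lay just under it at 2.96-fold. The number of members past 3-fold was 3 without BR-IRGA 409 excess Fe replicate 1, 2 with array weights, median centring, the actin gap as a covariate or the arrays numbered 1 left out, and 0 by the methods' t-test after adjustment.

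OsIPS1 stood at 7.58, 7.66 and 7.66 on the BR-IRGA 409 control arrays 1 to 3 and at 8.59, 10.03 and 10.30 on the excess Fe arrays. All 3 excess Fe arrays lay above all controls, the control arrays were close together, and excess Fe replicate 1 was well below the other excess Fe arrays. The mean went from 7.63 ± 0.042 to 9.64 ± 0.92 (SD, n = 3 arrays each), a change of 2.01 (SE 0.32, 4.03-fold, limma adjusted p = 0.00229). The change was 2.51 (limma adjusted p = 8.16e-06) without the 4 arrays numbered 1, and 2.06 with the actin gap as a covariate. By the methods' t-test, adjusted over all probe sets, it was not called (adjusted p = 0.188).

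OsSPX2, whose protein binds OsPHR2 in a phosphate-dependent way, stood at 8.62, 8.63 and 8.49 on the control arrays of BR-IRGA 409 and at 9.37, 9.70 and 9.55 with excess Fe. The groups were well apart and replicate 1 was again the lowest with excess Fe. The change was 0.96 (SE 0.13, 1.94-fold, limma adjusted p = 9.12e-04), and OsSPX2 was the only member also called by the methods' t-test after adjustment (adjusted p = 0.0472).

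OsSPX5, a close relative of OsSPX3 that also restrains the phosphate starvation response, was near the background level in control roots. Its probe set Os.51747.1.S1_at read 4.54, 5.0 and 5.12 on the BR-IRGA 409 control arrays, of which 2 of 3 lay above background, and 5.14, 7.01 and 7.20 with excess Fe. The excess Fe array numbered 1 was thus almost level with the highest control, and the other excess Fe arrays were far above it. The change was 1.57 (SE 0.41, 2.96-fold, limma adjusted p = 0.0375). Os.51747.1.S1_x_at went from 4.38, 5.23 and 4.98 to 5.21, 6.61 and 6.72, so that its groups just overlapped, with a change of 1.32 (SE 0.33, limma adjusted p = 0.0306). Both probe sets read the same gene and their changes are not independent of each other. The calls of OsSPX5 lay close to the threshold and were lost in several fits that left out 1 array. For Os.51747.1.S1_at, leaving out an EPAGRI 108 array did not alter the change, only its adjusted p. Its change grew to 1.62 and 1.68 without BR-IRGA 409 control replicate 2 or 3, although the call was lost. Os.51747.1.S1_at was not called in 9 of 12 fits that each left out 1 array, all but those without BR-IRGA 409 excess Fe replicate 1, EPAGRI 108 excess Fe replicate 1 or EPAGRI 108 control replicate 1 (adjusted p from 0.0514 to 0.164 in the 9). The call of Os.51747.1.S1_x_at was lost when any 1 of 4 BR-IRGA 409 arrays was left out, excess Fe 2 and 3 and control 1 and 3 (adjusted p between 0.0712 and 0.139). With 16 added to the linear values neither was called (adjusted p = 0.0680 and 0.0550). The methods' t-test called neither, even without adjustment.

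OsSPX1, which like OsSPX2 inhibits OsPHR2, and OsSPX3 were not called in BR-IRGA 409. OsSPX1 read 8.56, 9.29 and 8.96 in control and 9.11, 9.86 and 9.94 with excess Fe, a change of 0.70 (SE 0.23, adjusted p = 0.0966). The excess Fe array was higher in each same-numbered pair of arrays, by 0.55, 0.57 and 0.98, although the groups overlapped. With the replicate number as a block OsSPX1 was called (adjusted p = 0.00963), as it was when BR-IRGA 409 excess Fe replicate 1 was left out (0.96, adjusted p = 0.0169). OsSPX3 read 5.14, 5.06 and 5.07 in control and 5.07, 5.54 and 5.65 with excess Fe (change 0.33, adjusted p = 0.229). It stayed at control level on excess Fe array 1 and exceeded every control on the other excess Fe arrays, and without that array it was called (0.51, adjusted p = 0.0273).

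OsSPX4, whose protein keeps OsPHR2 out of the nucleus, changed little. Its probe set Os.16964.1.S1_x_at read 8.34, 8.37 and 8.29 in BR-IRGA 409 control and 8.53, 8.59 and 8.57 with excess Fe. The groups did not overlap but the change was small, at 0.23 (SE 0.10, adjusted p = 0.245). Os.16964.2.S1_at had 0.10 (95% confidence interval -0.52 to 0.72, adjusted p = 0.912). In all, 4 of 8 probe sets had excess Fe arrays wholly above the control arrays, against 11.1% of all probe sets, namely those of OsIPS1 and OsSPX2, Os.16964.1.S1_x_at and Os.51747.1.S1_at. OsIPS1 had been picked for its rise on these arrays, so its place in this count is not evidence.

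**Figure D1:**
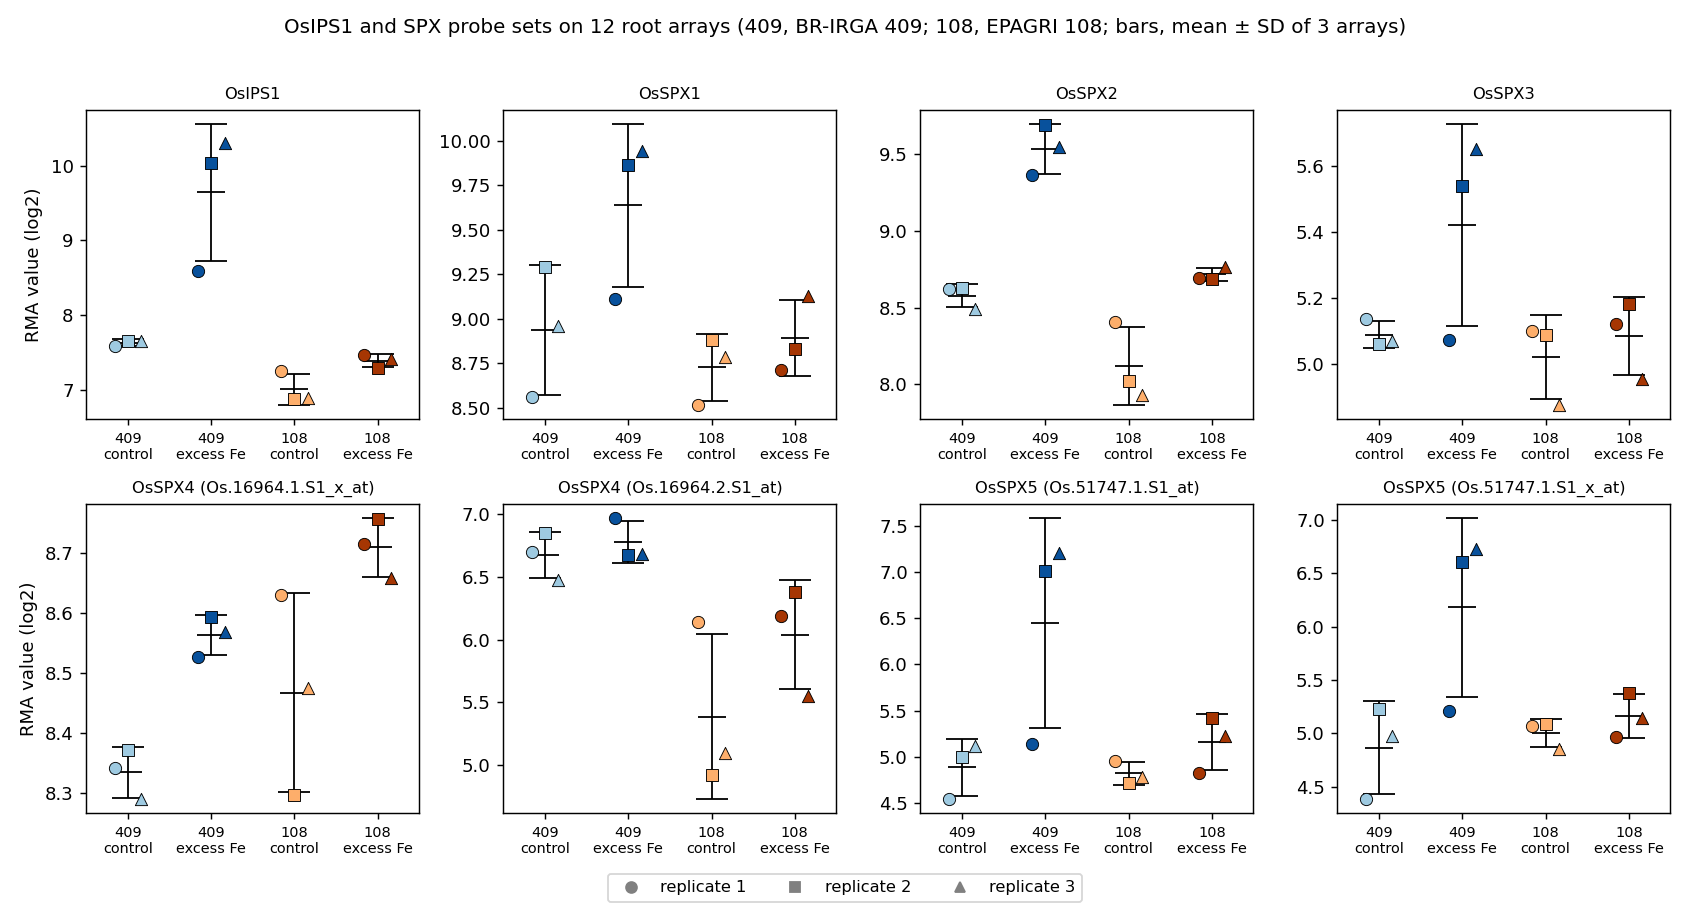
RMA values (log2, y axis, with its own range in each panel) of the 8 probe sets on the 12 arrays, by group on the x axis. Symbols give the replicate number and bars the mean ± SD of 3 arrays; OsIPS1 rose from 7.63 to 9.64 in BR-IRGA 409, with excess Fe replicate 1 at 8.59.

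In EPAGRI 108, directions are given by the array labels, and the study's own tables run the opposite way for this cultivar. Here 0 of 8 probe sets were called by limma, where 0.770% of all probe sets were called higher. At an unadjusted limma p under 0.05 there were 3, namely OsSPX2 and both probe sets of OsSPX4, where 10.3% of all probe sets passed in either direction. The methods' t-test called 2 unadjusted, OsIPS1 and OsSPX2, beside 7.27% of all, and 0 after adjustment. All 8 changes were above 0, as were 26313 of 57258 over all probe sets, and OsSPX4 and OsSPX5 each count by both of their probe sets. The median of the 8 was 0.29 beside -0.015 over all probe sets. The excess Fe arrays lay wholly above the control arrays for 3 of 8, OsIPS1, OsSPX2 and Os.16964.1.S1_x_at of OsSPX4, against 6.34% of all probe sets.

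OsSPX2 came closest to a call in EPAGRI 108. It read 8.41, 8.02 and 7.93 on the control arrays and 8.70, 8.69 and 8.77 on the excess Fe arrays. The excess Fe arrays were nearly identical and control replicate 1 was the highest of the controls. The change was 0.60 (95% confidence interval 0.31 to 0.89, 1.51-fold, limma adjusted p = 0.0554). Without EPAGRI 108 control replicate 1 it was 0.74 (adjusted p = 0.00380) and without the 4 arrays numbered 1 it was 0.75 (adjusted p = 0.00426). Of all probe sets 3.87% and 7.30% were called in these fits, in either direction, beside 0.992% with all arrays.

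OsIPS1 stayed low in EPAGRI 108. It read 7.25, 6.87 and 6.89 in control and 7.47, 7.29 and 7.41 with excess Fe, so that the highest EPAGRI 108 array lay below the lowest BR-IRGA 409 control array. Its change was 0.39 (95% confidence interval -0.32 to 1.09, limma adjusted p = 0.856).

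OsSPX5 was near background in EPAGRI 108. Os.51747.1.S1_at read 4.96, 4.72 and 4.78 in control, above background on 1 of 3 arrays, and 4.83, 5.42 and 5.23 with excess Fe (change 0.34, 95% confidence interval -0.56 to 1.24). Without the 4 arrays numbered 1 it was called (0.57, adjusted p = 0.0237). Os.51747.1.S1_x_at had a change of 0.16 (-0.56 to 0.88). OsSPX1 read 8.51, 8.88 and 8.79 in control and 8.72, 8.83 and 9.13 with excess Fe, and its groups overlapped (0.17, interval -0.33 to 0.67). OsSPX3 stood between 4.88 and 5.18 on all 6 arrays.

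For OsSPX4 in EPAGRI 108, Os.16964.2.S1_at read 6.14, 4.93 and 5.09 in control and 6.19, 6.38 and 5.55 with excess Fe. Control replicate 1 stood far above the other controls and inside the range of the excess Fe arrays. The change was 0.65 (SE 0.29, adjusted p = 0.445), 1.03 (adjusted p = 0.0188) without that control array and 0.95 (adjusted p = 0.0468) without all 4 arrays numbered 1. Os.16964.1.S1_x_at, at 8.63, 8.30 and 8.48 in control and 8.71, 8.76 and 8.66 with excess Fe, had 0.24 (adjusted p = 0.399).

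**Figure D2:**
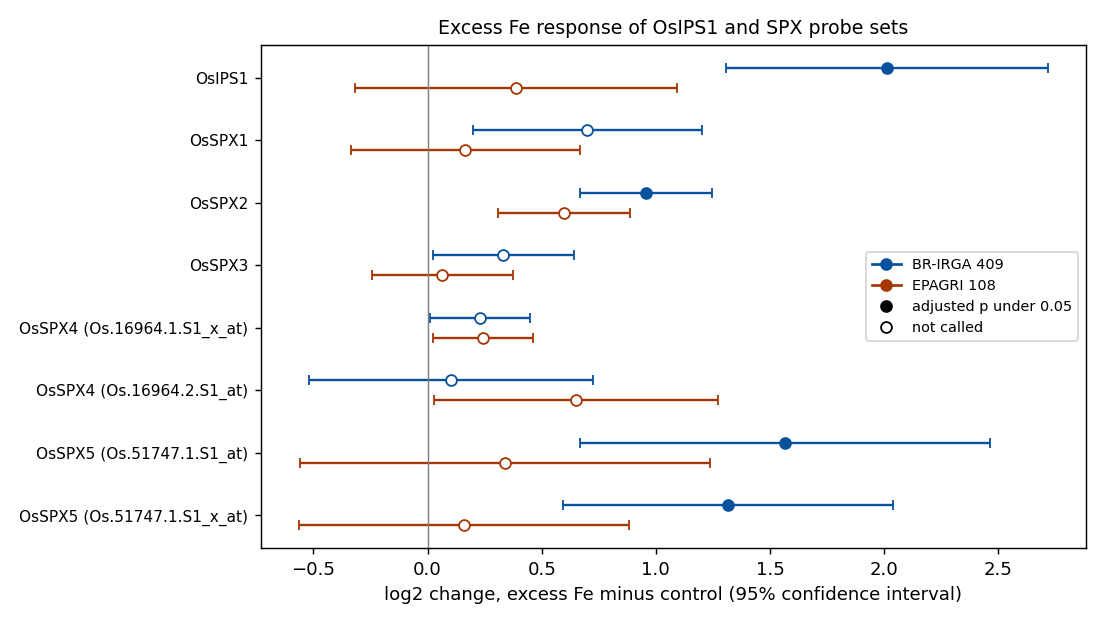
Change with excess Fe in log2 (x axis) for each of the 8 probe sets (y axis) in BR-IRGA 409 and EPAGRI 108, with 95% confidence intervals from limma; filled points passed an adjusted p of 0.05. The 4 filled points, OsIPS1, OsSPX2 and both of OsSPX5, are all of BR-IRGA 409.

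Whether the cultivars responded differently was tested by the interaction, the BR-IRGA 409 change minus the EPAGRI 108 change. It called 0 of 8 probe sets by limma, where 0.187% of all probe sets were called in either direction, and 2 had an unadjusted p under 0.05, OsIPS1 and Os.51747.1.S1_x_at, as did 4.71% of all. The difference was largest for OsIPS1, at 1.62 (SE 0.46, 95% confidence interval 0.63 to 2.62, limma adjusted p = 0.456). The BR-IRGA 409 rise for which OsIPS1 had been picked on these arrays enters this difference. Nothing is therefore read from its rank here, nor from its calls in the interaction fits that follow. For OsSPX5 it was 1.23 (interval -0.04 to 2.50) on Os.51747.1.S1_at and 1.16 (0.13 to 2.18) on Os.51747.1.S1_x_at. OsSPX1 had 0.54 (-0.17 to 1.24), OsSPX2 0.36 (-0.05 to 0.77) and OsSPX3 0.27 (-0.17 to 0.71). The OsSPX4 probe sets had -0.55 (-1.43 to 0.33) and -0.014 (-0.32 to 0.30).

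This outcome depended on the arrays numbered 1. Without BR-IRGA 409 excess Fe replicate 1 the interaction called OsIPS1 (2.15, limma adjusted p = 5.17e-04) and Os.51747.1.S1_at of OsSPX5 (1.88, adjusted p = 0.0180), where 0.175% of all probe sets were called. Without all 4 arrays numbered 1, a choice made after the data were seen, it called OsIPS1 (2.04, adjusted p = 0.00167) and both probe sets of OsSPX5 (adjusted p = 0.0104 and 0.0463), where 0.369% of all were called. With a block for the replicate number, shared by the 4 groups or within each cultivar, it called 0 of 8. With the EPAGRI 108 labels exchanged it called OsIPS1 (2.40, adjusted p = 0.00468) and OsSPX2 (1.55, adjusted p = 2.64e-04), but 9.99% of all probe sets were then called.

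The differences between same-numbered arrays show where the arrays numbered 1 departed. In BR-IRGA 409 the OsIPS1 difference between excess Fe and control was 1.01 for the arrays numbered 1, 2.38 for those numbered 2 and 2.65 for those numbered 3. For OsSPX5 on Os.51747.1.S1_at it was 0.60, 2.01 and 2.08. OsSPX2 had 0.75, 1.07 and 1.06, and OsSPX3 had -0.06, 0.48 and 0.58. The arrays numbered 1 thus gave the smallest difference for each of these genes in BR-IRGA 409. In EPAGRI 108 they gave the smallest difference for OsIPS1 (0.22, beside 0.43 and 0.52), OsSPX2 (0.29, beside 0.67 and 0.84) and OsSPX5 on Os.51747.1.S1_at (-0.13, beside 0.70 and 0.45). This did not hold for every member. Os.16964.2.S1_at of OsSPX4 had 0.27, -0.17 and 0.21 in BR-IRGA 409, and OsSPX1 had 0.20, -0.05 and 0.34 in EPAGRI 108. The actin gap was wider on these arrays in every group.

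**Figure D3:**
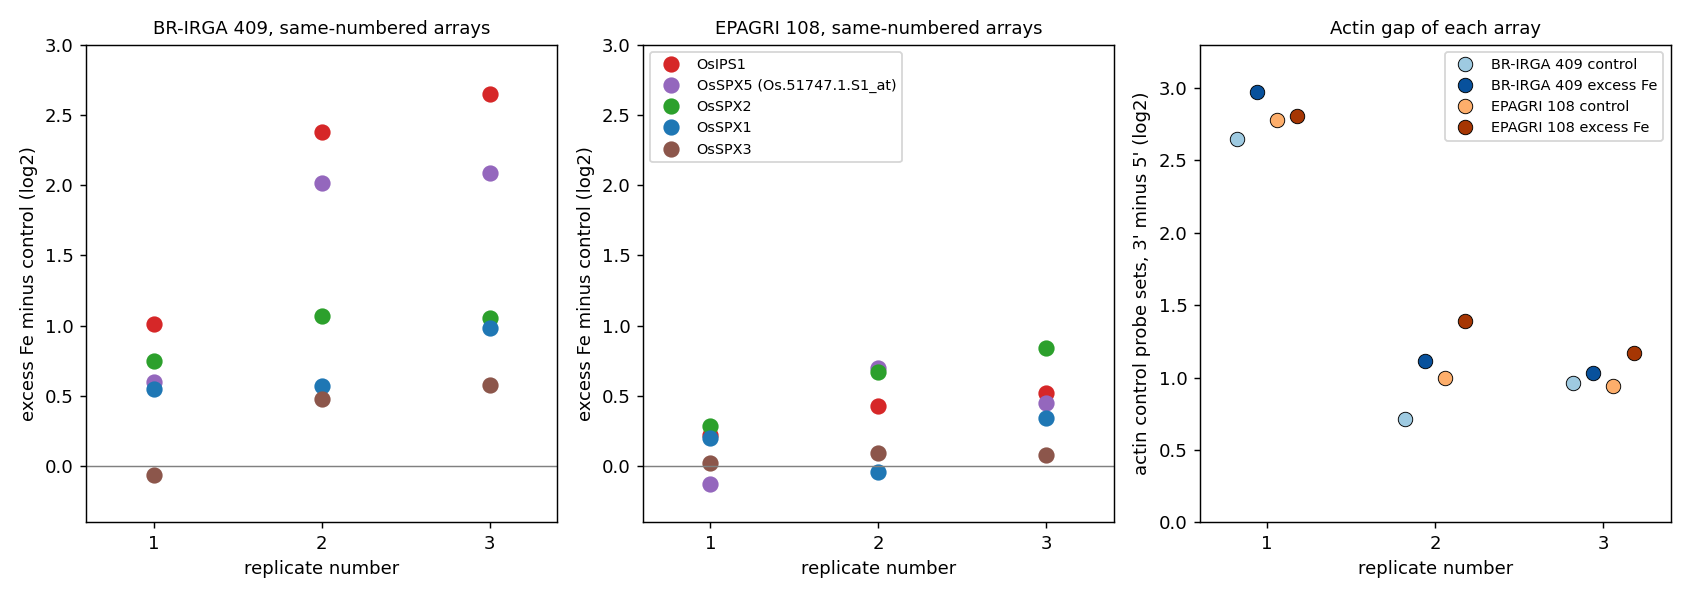
Left and middle, excess Fe minus control (log2, y axis) between arrays of the same replicate number (x axis) in BR-IRGA 409 and EPAGRI 108 for 5 probe sets; right, the 3' minus 5' actin gap (log2) of each of the 12 arrays. The arrays numbered 1 have gaps of 2.65 to 2.97, and the OsIPS1 difference there is 1.01 in BR-IRGA 409, below the 2.38 and 2.65 of the other pairs.

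Between the cultivars, in control roots 1 of 8 probe sets was called, where 3.25% of all were called in either direction. This was Os.16964.2.S1_at of OsSPX4, which stood at 6.70, 6.85 and 6.48 in BR-IRGA 409 and at 6.14, 4.93 and 5.09 in EPAGRI 108. Every EPAGRI 108 array was lower, replicate 1 the least so. The gap was -1.29 (SE 0.29, 2.44-fold lower in EPAGRI 108, limma adjusted p = 0.0259). It was not called without EPAGRI 108 control replicate 2 or 3 or without any 1 BR-IRGA 409 control array (adjusted p from 0.0533 to 0.121), nor with 16 added to the linear values (adjusted p = 0.0512). Os.16964.1.S1_x_at of the same gene had a gap of 0.13 (95% confidence interval -0.09 to 0.35), so the probe sets of OsSPX4 disagreed. The gap was -0.63 (adjusted p = 0.591) for OsIPS1 and -0.46 (adjusted p = 0.106) for OsSPX2, and both had EPAGRI 108 control arrays wholly below those of BR-IRGA 409. Without the 4 arrays numbered 1 both were called (-0.78, adjusted p = 0.00660, and -0.59, adjusted p = 0.0216), where 3.99% of all were called.

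Under excess Fe 2 of 8 probe sets were called between the cultivars, both lower in EPAGRI 108, where 3.65% of all were called in either direction. OsIPS1 was at 7.39 ± 0.088 in EPAGRI 108 and at 9.64 ± 0.92 in BR-IRGA 409 (SD, n = 3 arrays each), a gap of -2.25 (SE 0.32, 4.77-fold, limma adjusted p = 9.55e-04). OsSPX2 was at 8.72 ± 0.043 and 9.54 ± 0.16, a gap of -0.82 (SE 0.13, 1.76-fold, limma adjusted p = 0.00246). Both calls held in each fit that left out 1 array. By the methods' t-test after adjustment neither was called (adjusted p = 0.282 and 0.0790). The excess Fe arrays of BR-IRGA 409 enter both this gap and the Fe response of that cultivar, so these results share values. OsIPS1 had been picked for its rise on those arrays, so its call here is not independent of that choice.

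With the replicate number as a block 4 of 8 probe sets were called under excess Fe, the further ones being OsSPX1 (-0.74, adjusted p = 0.0109, against 0.133 without the block) and Os.51747.1.S1_x_at of OsSPX5 (-1.02, adjusted p = 0.0486, against 0.167), and of all probe sets 5.10%. Without the 4 arrays numbered 1 or with the actin gap as a covariate 5 were called, those 4 and Os.51747.1.S1_at, and of all probe sets 4.68% and 5.54%. Os.16964.1.S1_x_at of OsSPX4 was the only probe set higher in EPAGRI 108, by 0.15 (adjusted p = 0.713). CAB2R, the leaf marker, was likewise lower on every EPAGRI 108 array than on any BR-IRGA 409 array, and its part in these gaps was not tested.

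By their means, OsIPS1 was highest in BR-IRGA 409 excess Fe (9.64), then in BR-IRGA 409 control (7.63). EPAGRI 108 excess Fe (7.39) and EPAGRI 108 control (7.0) followed. No neighbouring groups in that order overlapped, but the EPAGRI 108 groups were barely apart. Their lowest excess Fe array was at 7.29 and their highest control array at 7.25. The middle pair was also close, with arrays at 7.58 and 7.47. OsSPX2 ran from BR-IRGA 409 excess Fe (9.54) through EPAGRI 108 excess Fe (8.72) and BR-IRGA 409 control (8.58) to EPAGRI 108 control (8.12), also without overlap between neighbours. For OsSPX1 BR-IRGA 409 excess Fe was highest (9.64), and the other 3 groups (8.73 to 8.94) lay within their spread. For OsSPX5 on Os.51747.1.S1_at the order was the same in its highest group (6.45), with the other 3 groups between 4.82 and 5.16 and overlapping.

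Other genes of the phosphate starvation pathway were taken by symbol as a list. Of 21 matched, 17 had a probe set. They are PHR, phosphate transporter, PHO1 and MGD genes. PHO2, PHF1, IPS2, SPX-MFS genes, purple acid phosphatases, sulfolipid synthesis and glycerophosphodiester phosphodiesterases were also planned for the list. No gene of these kinds is among those matched, so the list covers only part of the pathway. In BR-IRGA 409, 4 of 17 were called higher with excess Fe and 0 lower, where 4.24% of all probe sets were called higher. The median change was 0.17, beside -0.035 over all probe sets. In EPAGRI 108 limma called 0 of 17, where 0.770% of all probe sets were called higher. The median there was -0.014, beside -0.015 over all, and 4 of the genes had an unadjusted limma p under 0.05, beside 10.3% of all probe sets.

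Of the regulators, OsPHR3, a transcription factor of the PHR family, rose in BR-IRGA 409. It read 7.74, 7.61 and 7.55 in control and 8.63, 8.63 and 8.36 with excess Fe, clearly apart (0.91, SE 0.14, limma adjusted p = 0.00188). In EPAGRI 108 it had 0.64 (adjusted p = 0.0552), and with the replicate number as a block it was called there (adjusted p = 0.0469). OsPHR1 and OsPHR2, the best-studied member of the family, were not called in either cultivar, with changes of 0.17 and -0.030 in BR-IRGA 409 and 0.097 and -0.029 in EPAGRI 108.

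Of 11 transport genes 3 rose in BR-IRGA 409. OsPHO1;3 belongs to the PHO1 family, whose proteins carry an SPX domain and export phosphate to the xylem. It read 5.33, 5.41 and 5.47 in control and 7.39, 6.39 and 6.81 with excess Fe (1.47, SE 0.23, limma adjusted p = 0.00190). Here excess Fe replicate 1 was the highest array, unlike for OsIPS1 and OsSPX5. The phosphate transporter gene OsPHT1;4 went from 6.32, 6.30 and 6.28 to 7.26, 8.14 and 7.59 (1.37, SE 0.22, limma adjusted p = 0.00260). OsPHT1;8, which encodes a high-affinity phosphate transporter, read 9.80, 9.16 and 9.16 in control and 10.66, 10.72 and 10.60 with excess Fe on Os.46160.2.S1_x_at (1.28, SE 0.33, limma adjusted p = 0.0333). Its control replicate 1 stood above the other controls. Of its other probe sets, Os.46160.2.S1_at had a like change (1.29, adjusted p = 0.0686) and Os.46160.1.S1_at lay under background on all 12 arrays. The OsPHT1;8 call was lost without any 1 of the 3 BR-IRGA 409 excess Fe arrays or without BR-IRGA 409 control replicate 2 or 3. It was lost too without EPAGRI 108 excess Fe replicate 2 (adjusted p from 0.0508 to 0.118 in these fits). With 16 added to the linear values it was not called either (limma adjusted p = 0.0565). All 4 rises of the list were under 3-fold, and by the methods' t-test after adjustment none was called (adjusted p from 0.0517 to 0.121).

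In EPAGRI 108 these 3 transport genes had changes of 0.75 (OsPHO1;3, adjusted p = 0.176), 0.87 (OsPHT1;4, adjusted p = 0.0934) and 0.60 (OsPHT1;8, adjusted p = 0.633). Without the 4 arrays numbered 1 they and OsPHR3 and OsPHT1;1 were called (adjusted p from 0.00191 to 0.0272), where 7.30% of all probe sets were. Without EPAGRI 108 control replicate 1 alone OsPHR3, OsPHT1;4 and OsPHT1;8 were called higher and OsPHT1;3 lower, where 3.87% of all were called. For none of the 17 was the interaction called by limma, where 0.187% of all probe sets were. An unadjusted p under 0.05 was found for 2, as for 4.71% of all probe sets. OsPHT1;1, OsPHT1;2 and OsPHT1;6 had changes of 0.45, -0.51 and 0.33 in BR-IRGA 409 and were not called. OsMGD1 to OsMGD3, named for synthesis of galactolipids that can stand in for phospholipids, lay between -0.22 and 0.22 there. OsPHT1;7, OsPHT1;11 and OsPHT1;12 lay under background on all 12 arrays.

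Between the cultivars 0 of 17 genes of the list were called in control, where 3.25% of all probe sets were called in either direction. Under excess Fe 1 was called, where 3.65% of all were. This was OsPHO1;3, lower in EPAGRI 108 by limma (-0.92, SE 0.23, adjusted p = 0.0451). That call held without EPAGRI 108 control replicate 1 or 3 or BR-IRGA 409 excess Fe replicate 2 and was lost without any 1 of the other arrays (adjusted p from 0.0594 to 0.178).

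**Figure D4:**
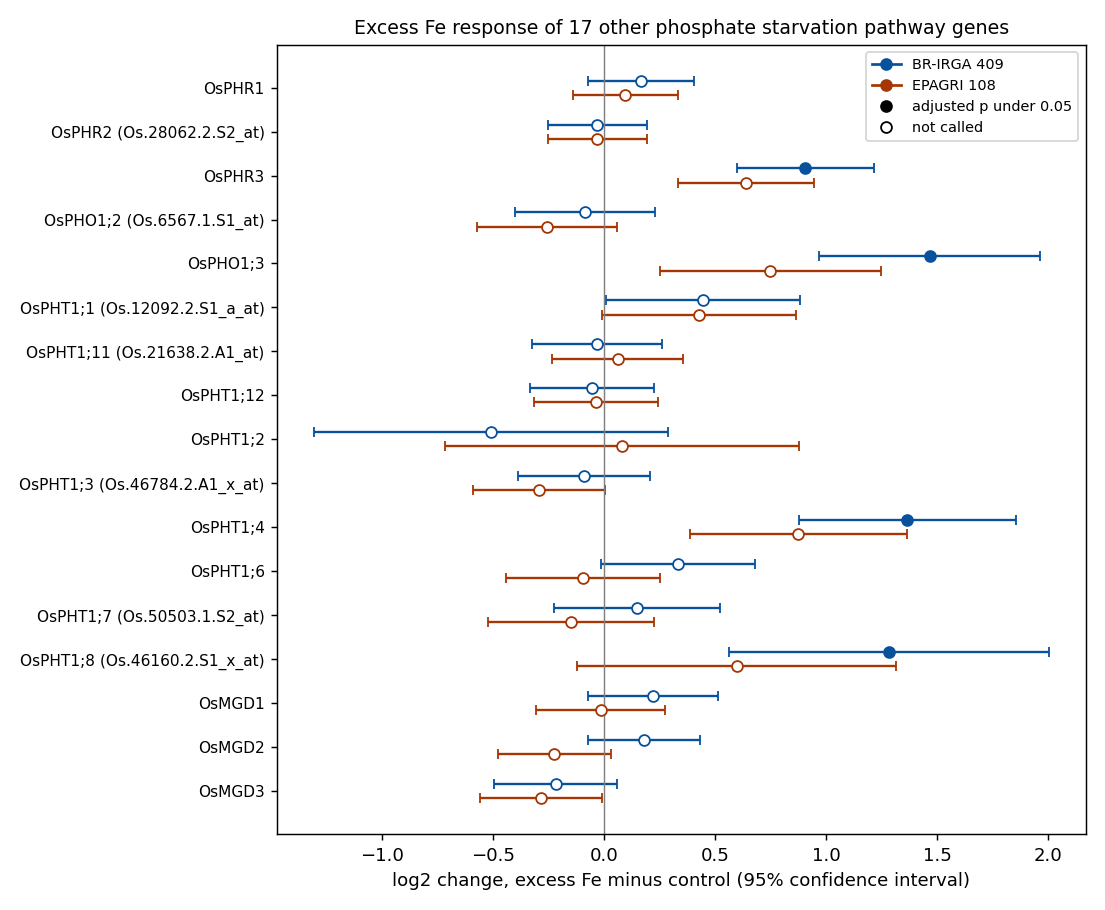
Change with excess Fe in log2 (x axis) of the 17 other pathway genes (y axis, 1 probe set each) in both cultivars, with 95% confidence intervals from limma; filled points passed an adjusted p of 0.05. OsPHR3, OsPHO1;3, OsPHT1;4 and OsPHT1;8 are filled, in BR-IRGA 409 only, and the EPAGRI 108 points of the 4 lie between 0.60 and 0.87.

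Among 2716 probe sets with 1 named gene and a signal above background on at least 3 arrays, likeness to a member was measured as the root mean square difference of the log2 values over the 12 arrays, each probe set centred on its own mean. Nearest to OsIPS1 was LPR1 (0.43), a multicopper oxidase whose Arabidopsis namesake oxidises Fe and acts in the response of root tips to low phosphate. LPR1 had a change of 2.10 in BR-IRGA 409 (limma adjusted p = 1.24e-04) and 0.54 in EPAGRI 108. OsSPX5 on Os.51747.1.S1_at came next (0.47), followed by CSLF2, a glucan synthase of the cell wall (0.51), RH2 (0.59) and ACA7, a calcium pump (0.59).

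Nearest to OsSPX5 on Os.51747.1.S1_at were AOX1a, the alternative oxidase of mitochondria (0.43), the expansin EXPA2 (0.44), the calcium sensor kinase CIPK6 (0.45), OsSPX1 (0.47) and OsPHT1;4 (0.48). On Os.51747.1.S1_x_at CIPK6 (0.26) and OsSPX1 (0.31) led, before AOX1a (0.32), EXPA2 (0.33) and CLE202 (0.33). Nearest to OsSPX2 were GT7 (0.19), 2 probe sets of IVD, an enzyme of leucine breakdown (0.20 each), the chitinase gene Rcb4 (0.22) and the potassium transporter HAK12 (0.24). None of the genes nearest to OsSPX2 is a member or on the pathway list. For Os.16964.2.S1_at of OsSPX4 they were the translation factor gene eIF-4A-1 (0.32), GRXS4 (0.34), TDC2 (0.36), RNB5 (0.37) and a bHLH gene (0.38), of which only the last was called with excess Fe in BR-IRGA 409 (0.87, limma adjusted p = 0.00345).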

How the data were processed

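Root RNA of 12 samples, 3 in each of 4 groups, was read on GeneChip Rice Genome Arrays. The authors scanned them with GeneChip Operating Software 1.2.1 and deposited log2 values made by RMA in ArrayAssist, which equalises the distributions of the arrays. Their methods then add a fixed quantity of unstated size to the linear values, which compresses changes of dim probe sets. The number of arrays limits the precision.

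From 57381 probe sets 123 controls were left out. The 4 group means entered 1 limma fit (limma 3.58.1, R 4.3.3) with 8 residual degrees of freedom, in place of the t-test of the methods, which was run as an alternative. The limma steps were tested on simulated data. Python 3.11.15, pandas 2.3.3 and matplotlib 3.10.9 made the tables and figures. Genes were paired with probe sets by the platform annotation (22436 probe sets with 1 gene, 95 with several, 34727 with none listed) and current symbols. A list gene with several probe sets was read by that of the highest mean. From the pathway list 4 ambiguous symbols (GRF4/PT2, HCT3/PHT1, PAP2 and PAP3) were left out, and OsPHT1;5, OsPHT1;10, OsPHT1;13 and OsPHO1;1 had no probe set. Named genes are all members, pathway genes called in a comparison and the 5 probe sets most like each called member; other pathway genes were named after their values were seen. The members and lists were chosen with earlier results of these data known.

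Deviations of same-numbered arrays from their group means correlated at 0.490, 0.209 and 0.108 in BR-IRGA 409 and at 0.454, 0.302 and 0.151 in EPAGRI 108, all over 0.1. Arrays numbered 2 correlated with those numbered 3 to a like degree, at 0.314 and 0.181 in BR-IRGA 409 and 0.259 and 0.211 in EPAGRI 108. Arrays numbered 1 correlated negatively with the others, at -0.393 to -0.216 and -0.390 to -0.235. Deviations from a mean of 3 arrays cancel out within a group, so a positive correlation between arrays numbered 1 forces negative ones with the others. The signs are therefore not separate evidence. The highest correlation in each cultivar was between the arrays numbered 1. Whether 2 pairs with 2 and 3 with 3 cannot be told from these values. The pairing comes from the numbers in the sample titles, and the labels name no shared batch. Alternatives were the replicate block, other scalings, filters and tests, leaving out each array, and 2 added after the data were seen (without the arrays numbered 1, and the actin gap as a covariate). Promoters were not analysed here.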

Additional observations from a re-analysis of the deposited data

How the results depend on the processing

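Leaving out each array in turn gave 2 to 6 called members for excess Fe in BR-IRGA 409 (4 with all arrays), 0 to 2 in EPAGRI 108 (0 with all), 0 to 2 for the interaction (0 with all), 0 to 2 between the cultivars in control (1 with all) and 2 to 6 under excess Fe (2 with all). The pathway list ran from 3 to 4 in BR-IRGA 409, from 0 to 4 in EPAGRI 108 and from 0 to 1 between the cultivars under excess Fe. With the replicate number as a block, 4 members were called between the cultivars under excess Fe and 1 pathway gene in EPAGRI 108, and OsSPX1 was called in BR-IRGA 409; the block over all groups changed no other call. The block within a cultivar changed only the OsSPX1 call and could not be fitted to gaps between the cultivars. With 16 added to the linear values there were 2 called members in BR-IRGA 409, 0 between the cultivars in control, and 0 pathway genes between them under excess Fe. The OsPHT1;8 call in BR-IRGA 409 was lost as well (limma adjusted p = 0.0565).

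The methods' t-test, unadjusted, called 3 members in BR-IRGA 409 (OsIPS1, OsSPX2 and Os.16964.1.S1_x_at of OsSPX4), 2 members and 3 pathway genes in EPAGRI 108, 3 members and 1 pathway gene between the cultivars in control, and 3 pathway genes under excess Fe. Adjusted, it called 1 member and 0 pathway genes in BR-IRGA 409, 0 members between the cultivars in control, and 0 members and 0 pathway genes under excess Fe. The methods name no t-test of the interaction, and none was run. Without dim probe sets, fewer being tested, 1 member and 1 pathway gene were called in EPAGRI 108, where 2.10% of those tested were. Array weights gave 6 members in BR-IRGA 409, 2 members and 3 pathway genes in EPAGRI 108, 2 members between the cultivars in control and 5 under excess Fe. Without the 4 arrays numbered 1 there were 6 members in BR-IRGA 409, 3 members and 5 pathway genes in EPAGRI 108, 3 members for the interaction, 3 members and 1 pathway gene between the cultivars in control and 5 members under excess Fe. The actin gap as a covariate gave 1 member and 1 pathway gene in EPAGRI 108 and 5 members under excess Fe. With the EPAGRI 108 labels exchanged the interaction called 2 members and 4 pathway genes. The calls over all probe sets moved too. In BR-IRGA 409 they were 7.64% with all arrays, 10.9% with array weights, 9.83% without the arrays numbered 1 and 16.7% by the unadjusted t-test. In EPAGRI 108 they were 0.992%, 5.97%, 7.30% and 7.27%, and 2.52% with the actin gap. For the interaction they were 0.187% with all arrays and 9.99% with the labels exchanged. Between the cultivars in control they were 3.25% with all arrays, 4.56% with array weights and 9.10% by the unadjusted t-test. Under excess Fe the gap between the cultivars had 3.65%, 5.05% and 10.3%. The cause of these moves was not tested.

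Directions turned only for values that were not called. The interaction of Os.16964.1.S1_x_at (OsSPX4) was 0.0083 with each array centred on its median, 0.47 with the EPAGRI 108 labels exchanged and -0.095 to 0.072 with single arrays left out. That of Os.16964.2.S1_at was 0.75 with the labels exchanged. With single arrays left out, the gap between the cultivars in control ran from -0.11 to 0.0047 for OsSPX3, from -0.24 to 0.052 for Os.51747.1.S1_at and from -0.10 to 0.32 for Os.51747.1.S1_x_at, which had -0.13 without the arrays numbered 1. The EPAGRI 108 change of OsSPX3 ran from -0.0084 to 0.13. OsSPX3 and OsSPX5 lay near the background level in control roots, and the part of this in the turned directions was not tested. Os.16964.1.S1_x_at, which turned as well, had a mean of 8.52 over the 12 arrays.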
